A study of Mus musculus with 6 samples.

Results

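Broad E2F1 intervals are the stretches of the genome on which peaks of the transcription factor E2F1 ran on for 2000 bp or more in NIH/3T3, a long-established mouse fibroblast line. Overlapping peaks of the 2 E2F1 libraries were joined where they shared at least 1 bp, and an interval was kept when it held a peak of each library. Of 7006 such intervals, 7001 lay on assembled chromosomes and 6985 of these overlapped no peak of the empty vector (EV) libraries. The broad intervals are the 697 of the 6985 that were at least 2000 bp wide (9.98%), and the other 6288 are called narrower below. They were chosen by width and by the lack of an EV peak, both read from these lists, so width, fold enrichment and read pileup are given as descriptions without a test.

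The data come from chromatin immunoprecipitation followed by sequencing (ChIP-seq), with 2 libraries of cells that carry a doxycycline-inducible E2F1 construct and 2 of cells that carry the EV construct. Cells of both groups were held in 0.25% serum for 48 hours to bring them to a resting state and were then treated with doxycycline for 12 hours, so starvation and drug are shared by both groups. The study asks which genes E2F1 binds as cells leave the resting state. Induced E2F1 stands on top of the cells' own E2F1, the labels do not say whether the lines are single clones, and nothing says that the libraries of a group came from separate cultures. Input samples of the EV cells were not analysed here. The lists held 7836 and 8027 peaks in E2F1 replicates 1 and 2, and 70 and 358 in EV replicates 1 and 2.

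E2F1 binds DNA as a dimer with a DP protein. In resting cells the retinoblastoma family of pocket proteins holds E2F activity in check, and cyclin-dependent kinases release it on the way into S phase. Its known targets are the genes of DNA replication, nucleotide synthesis and the cell cycle, E2F genes themselves included, and the classic binding site reads TTTCCCGC or TTTGGCGC on either strand.

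Promoter sequences of 6 genes with broad intervals are shown because each holds such a site within the last 250 bases before its listed start. They are reference sequence from RefSeq, build GRCm38.p6, written 5′ to 3′ on the strand of the gene, and the capitals mark the E2F match. E2f7 and E2f3 encode E2F proteins, Pds5a a cohesin regulator, Srsf1 a splicing factor, Arid1a a subunit of a chromatin remodelling complex, and Fosl2 a member of the AP-1 family.
E2f7 (chr10:110745189-110745438, plus strand): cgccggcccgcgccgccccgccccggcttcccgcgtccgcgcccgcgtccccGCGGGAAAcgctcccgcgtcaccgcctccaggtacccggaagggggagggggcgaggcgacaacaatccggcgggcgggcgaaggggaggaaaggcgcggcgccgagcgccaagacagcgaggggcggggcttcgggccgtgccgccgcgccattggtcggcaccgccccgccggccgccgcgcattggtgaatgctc
E2f3 (chr13:29986064-29986313, minus strand): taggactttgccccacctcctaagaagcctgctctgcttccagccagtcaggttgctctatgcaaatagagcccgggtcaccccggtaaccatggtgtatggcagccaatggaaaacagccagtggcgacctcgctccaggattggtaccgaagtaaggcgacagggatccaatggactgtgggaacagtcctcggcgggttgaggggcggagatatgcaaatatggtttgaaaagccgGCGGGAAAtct
Pds5a (chr5:65698237-65698486, minus strand): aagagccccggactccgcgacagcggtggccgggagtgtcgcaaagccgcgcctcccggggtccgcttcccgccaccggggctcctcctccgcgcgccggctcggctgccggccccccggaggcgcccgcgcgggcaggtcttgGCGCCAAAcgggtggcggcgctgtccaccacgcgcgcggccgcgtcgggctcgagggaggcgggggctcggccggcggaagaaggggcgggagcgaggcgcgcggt
Srsf1 (chr11:88047123-88047372, plus strand): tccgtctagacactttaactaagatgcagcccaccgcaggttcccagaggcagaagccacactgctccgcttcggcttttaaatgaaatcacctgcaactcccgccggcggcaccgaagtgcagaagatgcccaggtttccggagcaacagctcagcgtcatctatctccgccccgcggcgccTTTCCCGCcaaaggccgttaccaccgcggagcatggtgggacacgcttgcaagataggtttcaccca
Arid1a (chr4:133753986-133754235, minus strand): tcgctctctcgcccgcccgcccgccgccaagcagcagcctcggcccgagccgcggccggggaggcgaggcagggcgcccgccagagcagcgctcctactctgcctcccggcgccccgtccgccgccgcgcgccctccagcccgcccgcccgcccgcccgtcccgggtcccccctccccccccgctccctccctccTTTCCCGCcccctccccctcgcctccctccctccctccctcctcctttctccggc
Fosl2 (chr5:32136222-32136471, plus strand): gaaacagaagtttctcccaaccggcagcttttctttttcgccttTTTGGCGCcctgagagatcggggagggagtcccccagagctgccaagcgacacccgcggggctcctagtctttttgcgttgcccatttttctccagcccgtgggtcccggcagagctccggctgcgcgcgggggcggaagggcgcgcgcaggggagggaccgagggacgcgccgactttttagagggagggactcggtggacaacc

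With the listed start counted as 0, the match began at -198 in E2f7 and the strongest summits of replicates 1 and 2 lay at -251 and -240. In Pds5a the match began at -106 and the summits lay at -162 and -132. In Srsf1 it began at -67, with summits at 75 and 44, and in E2f3 at -11, with summits at 231 and 118. The listed start of Arid1a lies inside the annotated gene. Its match began at -55 and the summits lay at -306 and -173. Fosl2 differed from the other 5, with a match at -206 and summits much further upstream, at -896 and -884.

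The motif set searched was TTTCCCGC, TTTGGCGC, TTTCGCGC and TTTGCCGC on both strands, in windows of 300 bases from 250 before to 50 after each listed protein-coding start. Of the 721 windows whose start lay in a broad interval, 62 held a match (8.60%, Wilson 95% interval 6.77 to 10.9), against 2.85% of all 21238 listed windows. In narrower intervals 308 of 5549 windows did (5.55%, 4.98 to 6.18), and in windows with no E2F1 interval 235 of 14966 (1.57%, 1.38 to 1.78). The share was therefore highest at broad intervals, and most broad windows still lacked these letters. A match says only that the letters are there.

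The 6-letter core, left when the first T and the last C of each motif are taken away and so contained in it, was present in 57.4% of broad windows, 48.5% of narrower ones and 29.8% of all windows. The letters GGGCGG, the core of the site of SP proteins, were in 83.1% of broad, 76.8% of narrower and 46.2% of all windows. CCAAT, the NF-Y site, was in 35.8%, 36.3% and 38.2%, and TATAAA in 4.72%, 4.14% and 12.6%. The windows also differed in base composition, which moves with every GC-rich motif. The median GC content was 69.3% in broad, 65.0% in narrower and 52.3% in windows with no interval, and the part of composition in the E2F share was not tested. Among the 62 broad windows with an E2F match, the match lay within 100 bp of the strongest summit in 10 (16.1%, 9.0 to 27.2) for replicate 1 and 24 (38.7%, 27.6 to 51.2) for replicate 2. In narrower intervals these shares were 24.0% and 45.8% of 308 windows.

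Broad intervals were 2001 to 8966 bp wide, with a median of 2383 bp and quartiles of 2165 and 2738 bp. The median over all 6985 intervals was 1091 bp. Of the 697, 272 reached 2500 bp, 110 reached 3000 bp, 25 reached 4000 bp and 8 reached 5000 bp. There was no gap at the threshold. Just inside it lay the intervals at Csf1 (2001 bp), Ncl (2003 bp) and Nfyb (2003 bp), and just outside it those at Cdca4, Pdp1 and Atoh8, each 1999 bp wide. Inside, folds in replicates 1 and 2 were 5.33 and 9.13 at Csf1, 16.0 and 19.02 at Ncl and 22.6 and 63.1 at Nfyb. Outside, they were 18.8 and 59.4 at Cdca4, 8.75 and 31.1 at Pdp1 and 13.9 and 8.77 at Atoh8.

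E2F1 replicate 1 set most of the widths. Its widest peak in a broad interval had a median width of 2304 bp, against 1779 bp in replicate 2. A single peak of at least 2000 bp was listed by both libraries in 191 intervals (27.4%), by replicate 1 alone in 423 (60.7%), by replicate 2 alone in 30 (4.30%) and by neither in 53 (7.60%), where the union of peaks made the width. The widest peak was wider in replicate 1 in 613 of the 697 intervals (87.9%) and in 3907 of the 6288 narrower ones (62.1%). Over whole lists, 633 peaks of replicate 1 and 232 of replicate 2 reached 2000 bp, at like lowest local backgrounds of 1.85 and 1.86 reads. The median local background in broad intervals was not alike, with 4.63 reads in replicate 1 and 2.73 in replicate 2. With replicate 2 alone, 223 peaks free of EV were at least 2000 bp wide. They overlapped 221 of the 697 broad intervals, while those of replicate 1 alone overlapped 614.

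**Figure D1:**
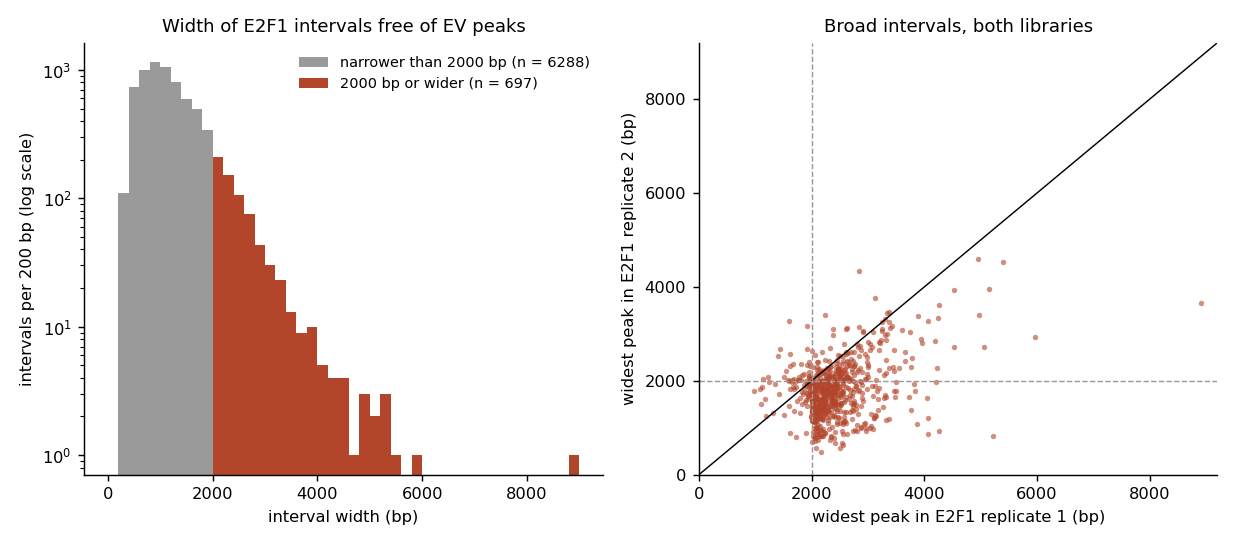
Left, number of intervals by width in bins of 200 bp on a log scale, with the 6288 narrower intervals in grey and the 697 broad ones in red. Right, width of the widest peak in each library for the 697 broad intervals, with the line of equal width and dashed lines at 2000 bp; 613 points lie below the line of equal width.

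Most broad intervals held 1 listed peak in each library, though this was less common than among narrower ones. In 615 of the 697 (88.2%) each library listed 1 peak, against 99.3% of narrower intervals. Replicate 1 listed 2 or more in 32 (4.59%, against 0.461%) and replicate 2 in 52 (7.46%, against 0.191%). A count of listed peaks does not show how many binding sites lie beneath them. The strongest summits of the libraries lay within 100 bp of each other in 431 intervals (61.8%, 58.2 to 65.4) and in 70.3% of narrower ones. They were over 1000 bp apart in 33 broad intervals (4.73%) and in 6 narrower ones (0.0954%), which leave less room for such a distance. The largest gap was 3662 bp, at Sin3a.

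Fold enrichment and pileup are the authors' fold at the summit and the number of reads solved from it, and both ran higher in broad intervals. The median fold of the strongest peak was 15.6 in replicate 1 and 21.8 in replicate 2, against 9.48 and 12.1 in narrower intervals. The median pileup was 87 and 84 reads, against 48 and 48. In 520 broad intervals (74.6%) the fold was at or above the median of its list in both libraries, and in 74 (10.6%) below it in both. Ordered by the lower of the 2 fold percentiles, the 10% of intervals at the top were 28.9% broad, the 10% at the bottom 3.14% and the next 10% above these 2.00%. Across the 6985 intervals Spearman's rho between width and fold was 0.44 in replicate 1 and 0.50 in replicate 2. Within the 697 it was 0.11 and 0.07. The rule cuts the range of widths there, which by itself lowers a correlation, so no conclusion is drawn from the drop. Width and fold come from the same calls, which these correlations share.

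The widest interval, 8966 bp on chromosome 5 from 142813406 to 142822371, lay inside Tnrc18, with folds of 17.1 and 15.8 in replicates 1 and 2. Replicate 1 listed it as a peak of 8901 bp and replicate 2 as 2 peaks, the wider of 3658 bp. The next was 5965 bp at Arid1a (folds 16.9 and 24.5), which replicate 2 also split into 2 peaks. Sin3a, which encodes a corepressor scaffold, followed with 5436 bp and folds of 11.8 and 13.5. Here the width was made by 3 peaks of replicate 1 and 2 of replicate 2, none of them over 2000 bp. Fosl2 came next with 5393 bp and folds of 24.1 and 50.1, in 1 peak in each library, 5393 and 4521 bp wide.

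The other 6 of the 10 widest lay at Zfp36l1 (5328 bp), Ier2 (5212 bp), Ptma (5147 bp), Pcbp1 (5066 bp), Hmga1 (4975 bp) and Brd2 (4959 bp). Zfp36l1, a decay factor for AU-rich mRNAs, had folds of 23.5 and 15.7. Ptma, which encodes the histone-binding protein prothymosin, had 27.5 and 40.4, and the RNA-binding protein gene Pcbp1 had 21.9 and 51.5. Hmga1, a chromatin architectural gene, had 16.3 and 34.2. Brd2 encodes a reader of acetylated histones and had the lowest folds of the 10 in replicate 1, with 8.51 and 13.0. At Ptma, Pcbp1, Hmga1 and Brd2 each library listed 1 peak.

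The 10 broad intervals that stood highest in both lists by fold were other ones. Pds5a led with folds of 67.5 and 104.3 and pileups of 310 and 297 reads over 3166 bp. Ccne1, the cyclin E gene whose product drives entry into S phase with its kinase partner, had pileups of 379 and 417 reads over 2785 bp. Dek, a chromatin protein gene, had folds of 73.3 and 90.6 over 2311 bp. Tcf19 and Cchcr1 shared an interval of 2482 bp with folds of 55.6 and 86.4. E2f7, an atypical E2F that represses E2F targets, had folds of 53.9 and 106.9 over 2137 bp. Scmh1, a Polycomb gene, had 44.8 and 72.8, and the other cyclin E gene, Ccne2, had 45.3 and 64.5 over 3313 bp. Nsd2, a histone methyltransferase gene, had 41.1 and 83.5. The remaining pair lay outside protein-coding genes, at the let-7i hairpin and on chromosome 15 from 103304429 to 103306766, 1467 bp from Gpr84, with folds of 48.7 and 73.7 there.

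**Figure D2:**
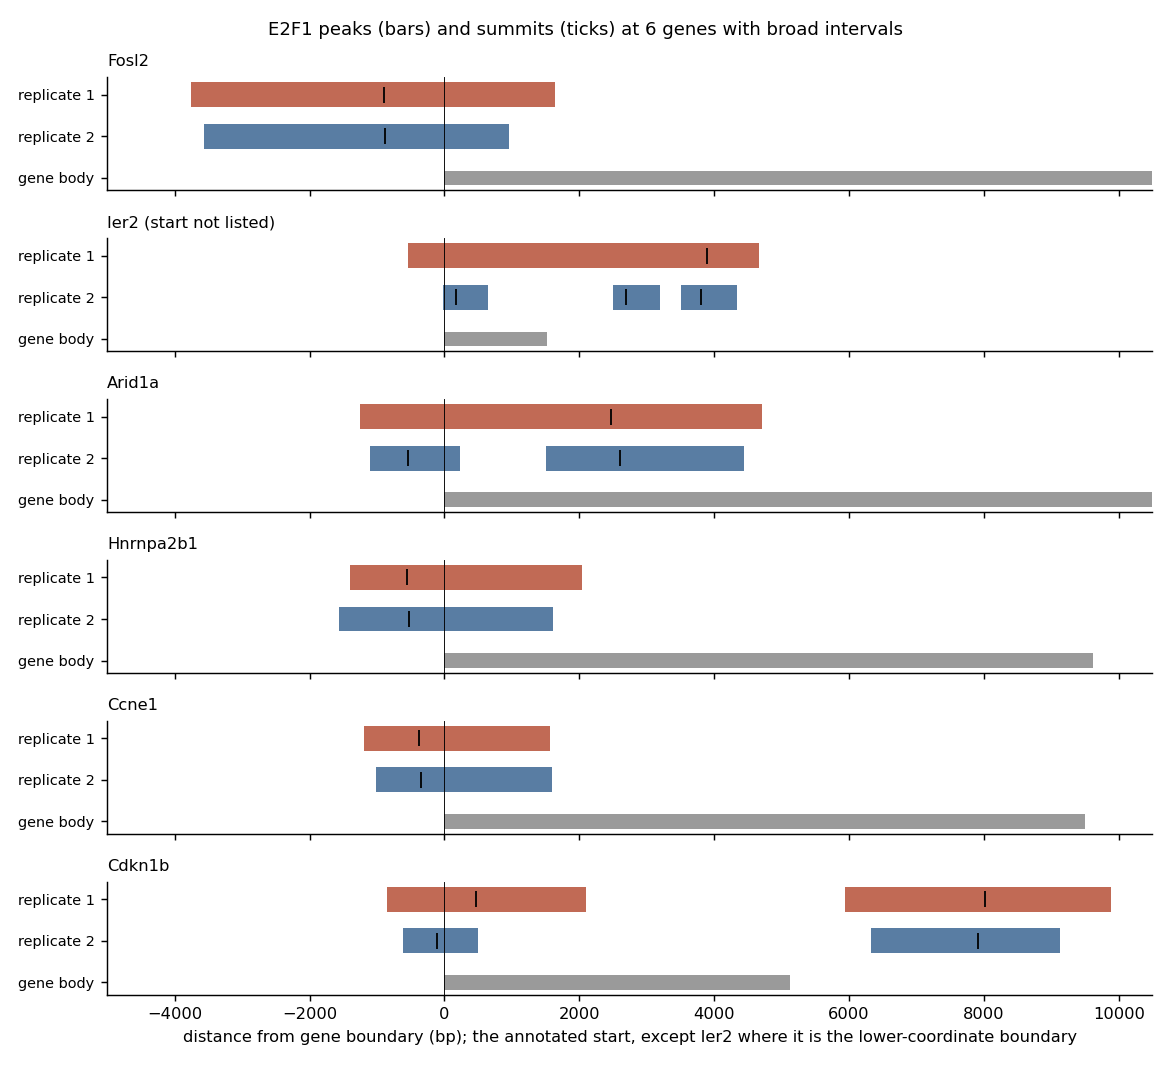
Peaks of E2F1 replicates 1 (red) and 2 (blue), with black ticks at the summits and the annotated gene in grey, against distance from the gene boundary in bp. Fosl2, Hnrnpa2b1 and Ccne1 carry 1 long peak in each library, replicate 2 splits Ier2 into 3 peaks and Arid1a into 2, and Cdkn1b has a broad interval at its start and another beyond its end.

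Of the 697, 586 reached to 1000 bp or less from where a protein-coding gene begins or ends, its boundary (84.1%, 81.2 to 86.6), against 83.7% of all 6985 intervals. Boundaries of 2 or more genes were within reach of 116 (16.6%, 14.1 to 19.6), against 15.9% of all. Both shares are near the background although a wide interval reaches further. Measured from the strongest summit, which width does not extend, 71.4% of broad intervals in replicate 1 and 71.7% in replicate 2 lay that close to a boundary, against 80.7% and 80.9% of narrower ones. A further 93 broad intervals (13.3%) lay inside a gene away from its boundaries, and 67 of these held a listed start within the gene. Only 18 broad intervals lay outside protein-coding genes (2.58%, 1.64 to 4.05), against 4.66% of narrower intervals (4.17 to 5.21).

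In 7 broad intervals 3 protein-coding genes had a boundary within 1000 bp. The highest by the lower of its fold percentiles was at Prkaca, Samd1 and 1700067K01Rik, 3199 bp wide with folds of 35.9 and 39.4. Others lay at Nek8, Tlcd1 and Rpl23a, at Plcb3, Ppp1r14b and LOC114841036, at Thoc6, Hcfc1r1 and Tnfrsf12a, at Gm20604, Gon7 and Ubr7, and at Atf5, Nup62 and Il4i1b. Their folds ran from 6.62 in replicate 1 at Thoc6 to 50.9 in replicate 2 at Atf5. In 12 broad intervals (1.72%) a gene was covered from start to end, against 0.159% of narrower ones. The width of the rule itself favours this. The genes covered by broad intervals were mostly short ones, such as Pcbp1 (1710 bp), Cebpb (1518 bp), Ier2 (1522 bp), Ier5l (1569 bp), Dlx2 (3347 bp) and H2ax (1363 bp), and histone genes such as H4c14 (384 bp).

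Broad intervals reached out on both sides of the start. In 458 broad intervals all listed starts were on 1 strand. Where an interval held several, the start nearest the midpoint between the strongest summits of the libraries was used. The 458 extended a median of 957.5 bp upstream and 1461 bp downstream of the start, against 359 and 644 bp in 4007 narrower intervals. They reached at least 1000 bp upstream in 46.5% of cases, against 2.77%. They ran further downstream than upstream in 71.6% (67.3 to 75.6), against 79.4% (78.1 to 80.6) of narrower ones. The width of the rule itself lengthens both arms, so the lengths are descriptions.

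The summits were placed differently as well. The strongest summit of replicate 1 lay downstream of the start in 57.4% of broad intervals (52.9 to 61.9) and 78.5% of narrower ones (77.2 to 79.7). In replicate 2 this was 42.6% (38.1 to 47.1) and 68.5% (67.1 to 69.9). Summits lay within 500 bp of the start in 77.9% of broad intervals in replicate 1 and 78.8% in replicate 2, against 96.9% and 97.1% of narrower ones. The start had to lie inside its interval, so narrower intervals leave less room for a summit far from it. Where several starts were listed, the one used was picked by its nearness to the summits. The part of width in these differences of summit position was not tested. The median summit position was 73 bp in replicate 1 and -47.5 bp in replicate 2 for broad intervals, and 138 and 69 bp for narrower ones, so in both libraries it lay further upstream where intervals were broad.

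**Figure D3:**
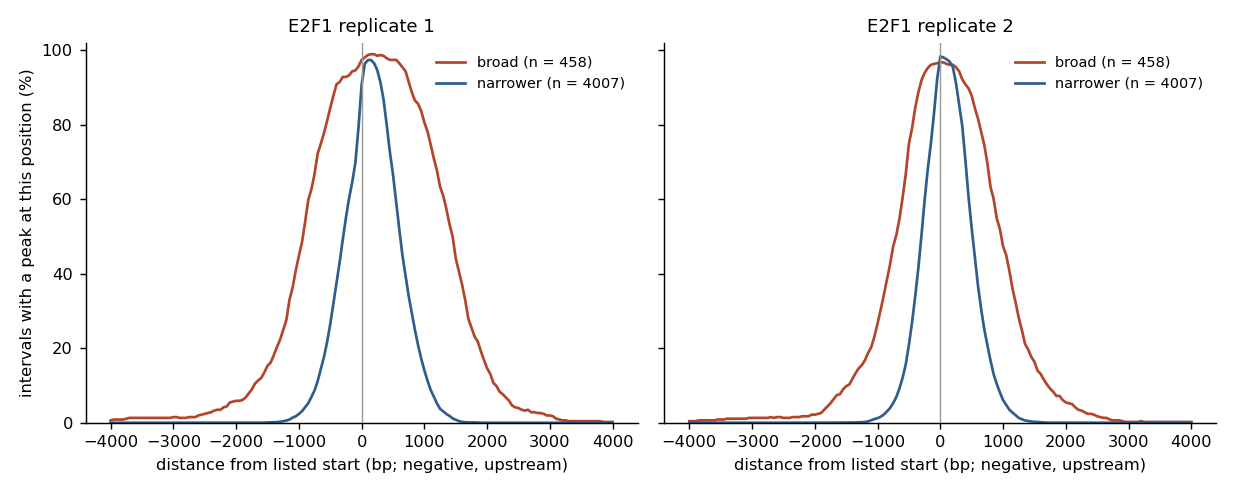
Percentage of intervals with a listed peak at each distance from the start, in bp along the gene, for 458 broad (red) and 4007 narrower (blue) intervals in replicate 1 (left) and replicate 2 (right). Peaks of both kinds cover the start itself, and the broad ones extend on both sides, further in replicate 1.

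By gene, 708 of 21887 protein-coding ones had a broad interval at a boundary (3.23%), and an interval of any width at 6815 (31.1%). Of genes with any interval 10.4% thus had a broad one, and the gene lists below are read against that share. In the lists an interval counts only at a boundary. With those inside genes counted as well, 805 genes had a broad one. The 7 written lists of cell cycle and replication genes held 228 genes together, of which 196 had an interval and 28 a broad one. That share was 14.3% (10.1 to 19.9, which holds the 10.4%). The lists differed widely among themselves, as the counts by role show. Genes are not replicates and lists share libraries, so no test was made between lists. An interval can also reach a neighbour, as with Junb and Prdx2 or Foxm1 and Rhno1, and it then counts for both genes.

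Among E2F, DP and pocket protein genes, 18 of 20 had an interval and 5 a broad one. These were E2f3, an activator, the repressors E2f7 and E2f8, Foxm1, the regulator of mitotic genes, and Rbbp4, a histone chaperone that binds the pocket proteins. E2f8 had folds of 39.0 and 100.3 over 2358 bp and Foxm1 25.7 and 45.8 over 2237 bp. E2f3 was lower, with 13.0 and 15.6 over 2967 bp. The interval of E2f1 itself was 1851 bp and that of Rb1 1862 bp. The E2F partner gene Tfdp1 had 1947 bp, so several members of this list lay just under the threshold, and the list's median width was 1856.5 bp against 1098 bp over all protein-coding genes.

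Among cyclin, CDK and CDK inhibitor genes 19 of 29 had an interval at a boundary and 7 a broad one there. With broad intervals inside genes counted as well, 10 of the 29 had one. Both cyclin E genes were among the 7. So were Ccnf, the gene of an F-box cyclin, Fbxo5, an inhibitor of the anaphase-promoting complex, and the G1 kinase gene Cdk6. Ccnf had folds of 31.8 and 85.9 over 3076 bp and Fbxo5 66.9 and 39.5 over 2994 bp. Cdk6 was weak, with 10.3 and 11.01 over 3105 bp. The CDK inhibitor gene Cdkn2c had folds of 19.1 and 52.5 over 3743 bp. Cdkn1b, another CDK inhibitor gene, carried 2 broad intervals. The one over its start was 2945 bp wide with folds of 7.39 and 12.7, and the one beyond its end, from 134926335 to 134930289 on chromosome 6, was 3955 bp wide with folds of 43.4 and 42.0. The mitotic and S phase genes Ccna2 (1869 bp), Cdk1 (1429 bp), Cdk2 (1410 bp) and Ccnb1 (734 bp) had narrower intervals.

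DNA replication genes had high folds at widths near those of all genes. Of 53 genes 49 had an interval, and 2 of the 49 had a broad one (4.08%, Wilson 95% interval 1.13 to 13.7, which holds the 10.4% of all genes with an interval). The median folds of the 49 intervals were 20.6 and 21.1 and their median width 1137 bp, against 9.97, 12.9 and 1098 bp over the intervals at all protein-coding genes. The broad ones were at Pcna, the sliding clamp, with folds of 54.0 and 57.5 over 2531 bp, and Rpa1, a subunit of the single-strand binding protein, with 16.9 and 16.3 over 2145 bp. Among the 20% of all intervals ranked highest by the lower of their 2 fold percentiles stood 24 of the 49, of which 1 was broad, while 279 of the 1192 such intervals at protein-coding genes were broad. Cdc7, the kinase that fires origins, had folds of 44.7 and 52.0 over 1485 bp, and the helicase gene Mcm2 had 21.9 and 35.3 over 950 bp. Cdt1, a licensing factor, came near the threshold with 1928 bp and folds of 42.4 and 34.1.

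The DNA repair and G2/M lists also held few broad intervals, at lower folds than the replication list. Their median folds were 13.2 and 17.1 for repair and 12.9 and 14.9 for G2/M. Of 36 intervals at repair and checkpoint genes 1 was broad (Wilson 95% interval of the share 0.492% to 14.2%), at the deubiquitinase gene Usp1, with folds of 31.5 and 87.5 over 2632 bp. Mdc1, a checkpoint mediator, had folds of 57.4 and 134.4 over only 1536 bp. Of 42 intervals at G2/M genes 2 were broad (1.32% to 15.8%), at the condensin gene Smc4 (27.7 and 21.1 over 2781 bp) and the kinetochore gene Nuf2 (32.6 and 45.8 over 2082 bp). The median widths of these lists were 1060.5 and 1042 bp. Nucleotide synthesis genes had 3 broad intervals among 14. Rrm2, the ribonucleotide reductase subunit that limits the enzyme in S phase, had 3603 bp with folds of 28.7 and 15.9, Tyms, thymidylate synthase, 2592 bp with 18.6 and 9.92, and Ppat, an enzyme of purine synthesis, 2043 bp with 29.4 and 63.9.

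Histone supply and chromatin assembly genes had broad intervals more often, at 8 of the 18 genes with any. Hmgb2 and Hmgb1 encode abundant chromatin proteins and had 3070 bp with folds of 34.9 and 26.9, and 2853 bp with 21.9 and 29.3. Ezh2 and Suz12, subunits of a Polycomb complex, had 2709 bp with 34.7 and 81.3 and 2072 bp with 20.2 and 49.4. Uhrf1, a partner of the maintenance DNA methyltransferase, had 22.6 and 32.7. The histone variant genes H2ax and H2az1 and the chaperone gene Rbbp7 completed the list. Of the 19 intervals of this list, 13 were among the 20% ranked highest by fold, and 7 of these were broad. Among those that were not broad, Hmgn2 had folds of 82.5 and 104.3 in 1662 bp, and Slbp, which encodes the histone mRNA binding protein, 46.5 and 90.5 in 1388 bp.

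Immediate early genes, which growth factors switch on within minutes, had broad intervals at a larger share than all genes. Of 38 genes 26 had an interval and 13 a broad one (Wilson 95% interval of the share 32.1% to 67.9%). Their 27 intervals had a median width of 1976 bp at median folds of 10.7 and 11.3, against 9.97 and 12.9 over all protein-coding genes. The AP-1 genes Fosl2, Fos, Jun, Junb and Jund were among the 13. Fos had folds of 12.0 and 8.53 over 2535 bp, and Jun 10.8 and 9.61 over 3307 bp. Junb had 13.3 and 17.1 over 2974 bp and Jund 7.50 and 11.2 over 2740 bp. Myc, a regulator of growth, had 13.2 and 13.0 over 2764 bp. The lowest folds of the 13 were at Dusp5, a phosphatase gene, in replicate 1 (3.99, with 9.35 in replicate 2) and at Gadd45b in replicate 2 (4.70, with 9.90 in replicate 1). Also among them were Dusp1, Ier2, Klf4, Klf10 and Zfp36. Below the median of all intervals by the lower fold percentile stood 15 of the 27, and 6 of these were broad, while 117 of 2872 such intervals over all protein-coding genes were broad. Egr1, with folds of 22.6 and 41.0, fell just short at 1976 bp.

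The count of immediate early genes rested on replicate 1, as did that of all genes with a broad interval. With the peaks of replicate 1 alone it was again 13, and with those of replicate 2 alone it was 5, namely Dusp1, Fosl2, Gadd45b, Jund and Klf10. For Fos, Junb and Myc replicate 2 listed 2 separate peaks each, the widest of 1368, 937 and 949 bp, and for Ier2 it listed 3. Histone supply genes fell from 8 to 4 with replicate 2 alone, cyclin and CDK genes from 7 to 4, and replication genes from 2 to 0. Over all protein-coding genes the count fell from 708 to 221, so the fall was not particular to these lists. The written list of apoptosis and related genes had 3 broad genes of 15 with any interval, among them Bbc3 and Bcl2l11. Those of growth factor signalling had 7 of 28, among them Igf1r, Irs2, Smad3, Smad7 and Tgfbr1. Mesenchymal and extracellular matrix genes, which mark fibroblasts, had 1 of 6, Twist1, a transcription factor gene.

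Among the broad signalling genes Igf1r and Irs2, a growth factor receptor gene and the gene of its adaptor, had 29.3 and 52.5 over 3300 bp and 24.1 and 32.9 over 3046 bp. Of the genes of apoptosis, Bcl2l11 encodes a protein that promotes cell death and had 24.9 and 39.9 over 3442 bp. Bbc3, of the same class, had 2 broad intervals at a boundary or inside it. One had 8.63 and 10.4 over 2792 bp, and the other was 2992 bp wide. Twist1 had 11.4 and 33.9 over 2488 bp.

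**Figure D4:**
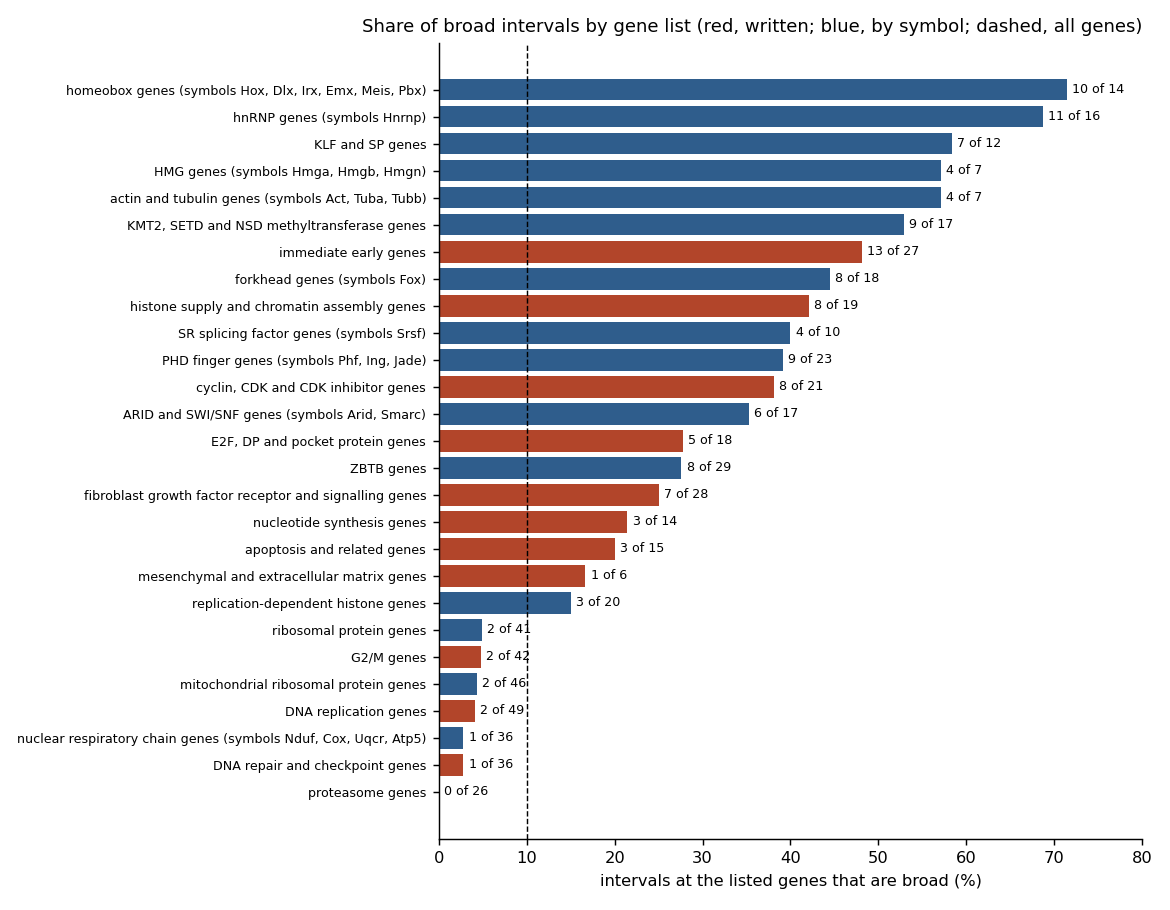
Percentage of the E2F1 intervals at each list's genes that were 2000 bp or wider, with the number broad of all intervals beside each bar, for the written lists (red) and gene families taken by symbol after values were seen (blue). The dashed line marks the share over intervals at all protein-coding genes; replication, repair and G2/M genes lie left of it and immediate early genes far right of it.

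**Figure D5:**
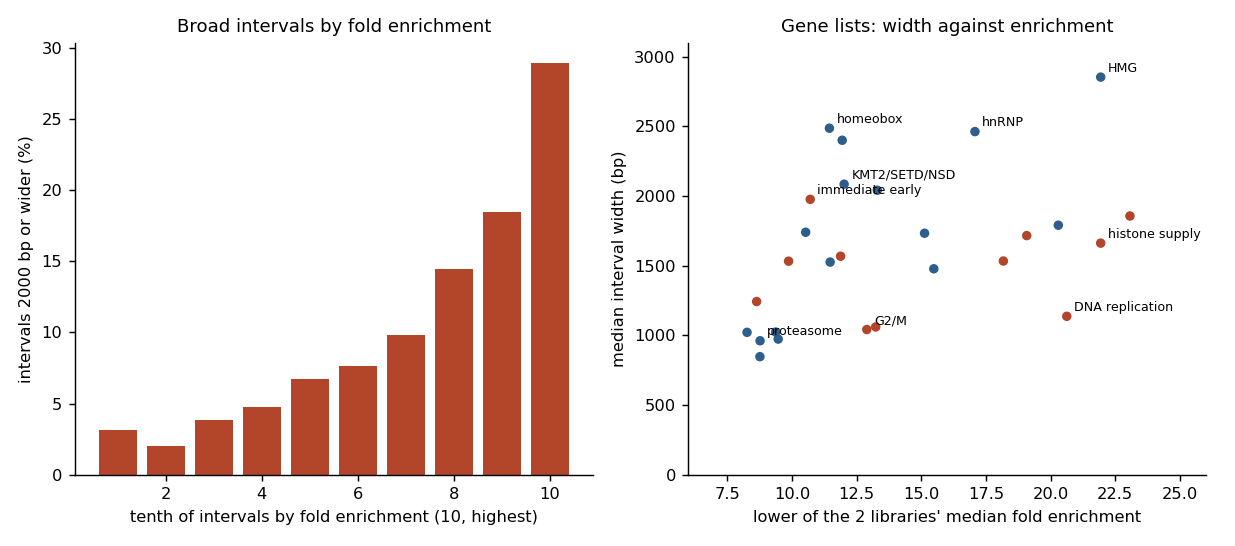
Left, percentage of intervals that were broad in 10 equal classes of the 6985 intervals ordered by the lower fold percentile of the 2 libraries, from 3.14% in the lowest to 28.9% in the highest. Right, median width against the lower of the median folds of the libraries for each gene list (red, written; blue, by symbol); DNA replication genes sit at a median width of 1137 bp and a lower median fold of 20.6, immediate early genes at 1976 bp and 10.7.

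The 18 broad intervals outside protein-coding genes included microRNA loci. MicroRNAs are short RNAs that pair with target mRNAs mainly through the seed, bases 2 to 8. A selection of the mature sequences near these intervals is shown from RefSeq, build GRCm38.p6, with the seed in capitals. They were chosen by role, and the let-7 seed recurs at separate loci. Those of Mir148b, Mir6963 and Mir3089 also lay near such intervals and are not shown. The first 6 belong to the let-7 family, known for restraining proliferation, and share a seed. The next 6 come from the Mir17 cluster, known as a target of E2F proteins that in turn lowers E2F1, and miR-16 is known to restrain cyclins.
let-7i-5p: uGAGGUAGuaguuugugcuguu
let-7a-5p: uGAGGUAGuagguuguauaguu
let-7f-5p: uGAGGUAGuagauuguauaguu
let-7d-5p: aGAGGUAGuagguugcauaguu
let-7c-5p: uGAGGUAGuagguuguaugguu
let-7b-5p: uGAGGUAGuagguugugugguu
miR-17-5p: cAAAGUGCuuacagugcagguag
miR-20a-5p: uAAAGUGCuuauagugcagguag
miR-18a-5p: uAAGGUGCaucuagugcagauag
miR-19a-3p: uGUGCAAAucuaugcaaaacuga
miR-19b-3p: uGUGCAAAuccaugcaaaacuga
miR-92a-3p: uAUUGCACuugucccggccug
miR-16-5p: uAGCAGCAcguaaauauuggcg

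The let-7i hairpin sat inside a broad interval that spans 122984237 to 122986952 on chromosome 10. Pileups there were 204 and 202 reads and folds 43.5 and 71.0. On chromosome 13, the interval from 48545060 to 48547965 had folds of 48.7 and 60.8 and lay upstream of the let-7a-1 hairpin by 6788 bp, of let-7f-1 by 7143 bp and of let-7d by 8946 bp. On chromosome 15, an interval of 4288 bp from 85668900 to 85673187 had folds of 18.6 and 49.4 and lay 33416 bp upstream of let-7c-2 and 34132 bp upstream of let-7b. The replicate 2 fold was thus 49.4 or higher at 3 separate let-7 loci, while the distance to the hairpin ran from none to 34132 bp.

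The Mir17 cluster, 6 hairpins on chromosome 14, was preceded by an interval of 2475 bp from 115040259 to 115042733 that ended 938 bp before the Mir17 hairpin and 1694 bp before Mir92-1. Its folds were 21.6 and 21.3, and the strongest summits of the libraries were 898 bp apart. Also on chromosome 14, 2 intervals lay upstream of the Mir16-1 hairpin. The one at a boundary of the non-coding gene Dleu2, 48978 bp away, had folds of 10.5 and 42.0, and the other, 15325 bp away, had 18.6 and 18.4. Within 50000 bp of a hairpin lay 8 of the 18 broad intervals outside protein-coding genes (44.4%, 24.6 to 66.3) and 42 of the 293 narrower ones (14.3%, 10.8 to 18.8). The distance was chosen after the values were seen. Among the 8 was the chromosome 15 interval near Gpr84, 19208 bp from Mir148b and 43689 bp from Mir6963. Another, on chromosome 2 from 30707205 to 30709281, lay 11929 bp from Mir3089, with folds of 14.0 and 19.3.

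The 5 widest broad intervals with no gene boundary of any kind within 1000 bp were at Nr2f2, Ubtf, the let-7c-2 and let-7b locus, Pdgfra and Tfap2a, where all but the let-7 locus lay inside the gene. Nr2f2, a nuclear receptor gene, had 4529 bp with folds of 16.8 and 61.0. Ubtf, which encodes a factor of ribosomal RNA transcription, had 4528 bp with 8.89 and 26.9. The receptor gene Pdgfra had 4072 bp at low folds of 5.69 and 9.53, with summits 1974 bp apart, and Tfap2a 3878 bp with 5.72 and 4.59.

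Of intervals at least 2000 bp wide, 4 were left out because an EV peak overlapped them. In 3 of these the folds were 3.32 or lower in both libraries on local backgrounds of 2061 to 6740 reads, and the remaining one had folds of 56.5 and 65.8. The widest of them, on chromosome 9, spanned 30700 bp from 3005719 to 3036418 with folds of 2.53 and 3.32 and pileups of 7389 and 6837 reads. None of the 697 had a local background above 13.5 reads in replicate 1 or 8.52 in replicate 2.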

How the data were processed

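Peak lists of 4 ChIP-seq libraries of NIH/3T3 cells were used, 2 with the inducible E2F1 construct and 2 with the empty vector (EV), grouped by sample title. Per the submitters' processing notes, FastQC, Trimmomatic, Bowtie2, MACS2, ChIPseeker and build mm10 were used. Versions, the antibody, the control of each list and the settings are not given in the sources used here, and the labels' extraction protocol describes RNA. The labels' treatment protocol gives 500 ng/ml doxycycline, while the names of the lists carry another figure. The deposited score is a whole number, 10 times the −log10 q-value. The fold that the authors deposited is the ratio, at the summit, of pileup to local background. The deposited −log10 p-values all lie above 10, so weaker binding is not listed. Library totals are unknown. Pileup and background were solved from fold, with a pseudocount of 1, and Poisson p, and came out whole within 5% of a step for 99.99% and 99.98% of E2F1 peaks.

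Peaks were merged at 1 bp of overlap, intervals were kept as stated, and genes within 1000 bp of an interval were taken from RefSeq, GRCm38.p6 (21887 protein-coding genes on assembled chromosomes), with promoters and miRNAs matched by coordinates (21238 listed starts). Wilson 95% intervals cover counting error only. Folds are the authors' values per library, ranked within a list, with no mean over libraries. The members and lists were chosen with earlier results of these data known, and families by symbol after values were seen, so no test was run. Named intervals were the 10 widest, the 10 highest by the lower fold percentile, 3 on each side of 2000 bp, those with 3 or more genes, the 5 widest away from boundaries, and those at genes of the 11 written lists. Some of these intervals and genes are not reported here. Sequences were chosen by role, for at most 6 promoters. Alternatives were other widths, windows, overlaps, score limits, motif sets and leaving out each library. Python 3.11.15, pandas 2.3.3 and statsmodels 0.14.6 were used, and the steps were tested on simulated data.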

Additional observations from a re-analysis of the deposited data

How the results depend on the processing

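Of 66 recomputed values under 14 alternative settings, 46 stayed within 1.5 times the main count or within its Wilson interval and 20 moved. No paired analysis was possible because no result comes from a test: the members are regions made from both E2F1 libraries together. The number of broad intervals, 697, was 1810 at a minimum width of 1500 bp, 110 at 3000 bp and 195 for the stretch covered by both libraries, and ran from 223 to 699 with 1 library left out. Genes with a broad interval at a boundary, 708, numbered 1876, 104 and 199 in the same order, and 221 to 709. Cell cycle and replication list genes, 28, numbered 76, 7 and 12, and 11 to 29. With 1 library left out, the lowest value of each of these 3 counts is without E2F1 replicate 1, since replicate 2 lists 232 peaks of 2000 bp or more and replicate 1 633. The share at a protein-coding boundary was 80.9% at 3000 bp, 87.9% with a window of 2500 bp and 87.8% with all annotated genes, and 82.5% to 84.1% with 1 library left out. The share at 2 or more genes was 12.7%, 19.9% and 37.3%, and 16.4% to 16.6%. The E2F motif share was 12.3% at 3000 bp and 57.4% with the 6-letter core, and 8.60% to 10.2% with 1 library left out. Added after seeing the data, the list counts by library are given in the report, and hnRNP genes went from 11 to 7 without replicate 1.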

Other observations

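Gene families were taken by symbol after values were seen, so their counts only describe these intervals. Genes of heterogeneous nuclear ribonucleoproteins, which bind and process pre-mRNA, had an interval at 16 of 21 and a broad one at 11, with a median width of 2462 bp and median folds of 17.1 and 28.9. Hnrnpa2b1 had folds of 23.5 and 71.0 over 3601 bp and Hnrnpa0 35.4 and 64.7 over 2490 bp. The SR splicing factor genes Srsf1, Srsf2, Srsf3 and Srsf10 were broad among 10 with an interval, and Srsf3 had folds of 30.9 and 95.8 over 2759 bp. Of KMT2, SETD and NSD histone methyltransferase genes 9 of 16 with an interval had a broad one, and of HMG genes 4 of 7.

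Homeobox genes were counted by the symbols Hox, Dlx, Irx, Emx, Meis or Pbx. Homeobox genes with other symbols were not counted. Of the 60 genes with these 6 symbols, 15 had an interval and 11 a broad one, at median folds of 11.4 and 15.0. The KMT2, SETD and NSD genes had like median folds of 12.0 and 15.7. Forkhead genes had 10.5 and 17.9, with a broad interval at 8 of the 18 that had any. Hoxa2, Hoxa4, Hoxa5 and Hoxa6 shared a stretch of chromosome 6, and Hoxa2 had folds of only 3.84 and 6.02 over 2566 bp. Dlx2 had 14.1 and 22.9 over 4547 bp, of which the widest replicate 2 peak covered 941 bp. Housekeeping families had few broad intervals, though the Wilson 95% interval of each share below holds the 10.4% of all genes with an interval. None of 25 proteasome genes with an interval had a broad one, nor did more than 2 of 41 ribosomal protein genes (Rpl23a and Rpl7), 2 of 47 mitochondrial ribosomal protein genes (Mrpl34 and Mrpl49) or 1 of 36 respiratory chain genes (Atp5g2). Their median folds lay between 8.26 and 11.9, beside 10.7 and 11.3 for immediate early genes, while their median widths lay between 847.5 and 1022 bp, against 1098 bp over all protein-coding genes.

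In all, 12 genes held 2 broad intervals at a boundary or inside them: Mllt10, Rbms1, Elf2, Rhof, Hoxa3, Foxp1, Hnrnpf, Cdkn1b, Bbc3, Cic, Tmpo and Bahcc1. Those of Hnrnpf were 3490 and 3242 bp wide.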
